A study of Mus with 5 samples.

Results

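The BCL2 family of apoptosis regulators was followed here through 10 of its genes in a chromatin immunoprecipitation sequencing (ChIP-seq) study of mouse CD8 T cells. The genes were Bcl2, Bcl2l1, Mcl1 and Bcl2a1d (pro-survival), Bax and Bak1 (effectors), and Bid, Bcl2l11, Bbc3 and Pmaip1 (BH3-only). A peak was taken as a member when the gene names that the authors' annotation gave it held 1 of these 10 symbols, which was true of 68 of the 27480 peaks in 4 peak lists. Naive CD8 T cells from the spleen of WT mice had received antibodies to CD3 and CD28 together with IL-2 as an activation step of 24 h, followed by a rest of 24 h in IL-2 at 100 U/ml. They were then kept for 1 h without retinoic acid (RA), the control, or with RA at 50 nM. Chromatin was precipitated with an antibody against the retinoic acid receptor RARα or against the transcription factor BATF, which gave the 4 lists: RARα control, RARα RA, BATF control and BATF RA. The treatment labels name a different interleukin for several samples (IL-7 to IL-10), whereas the protocol names IL-2 for all of them.

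The authors had merged 2 ChIP files to make each list and compared all 4 lists with the same 1 IgG file, whose RA status the labels do not give. The labels do not say whether the 2 files came from separate cultures. There is thus 1 list per factor and condition, no spread between replicates and no test between conditions, and intervals below cover counting error in these pools only. The pools held 22655611 (RARα control), 22475060 (RARα RA), 23110180 (BATF control) and 16424269 (BATF RA) fragments, so BATF RA had 71.1% of the depth of its control. Of the T cell marker genes Cd8a, Cd8b1, Cd3d, Cd3e, Cd3g, Cd2 and Thy1, 7 of 7 carried a BATF control peak, but so did 3 of 3 B cell markers and 1 of 3 myeloid markers, and a peak marks binding, not expression.

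BCL2 family proteins decide at the outer mitochondrial membrane whether a cell starts apoptosis. The pro-survival members hold the effectors BAX and BAK in check, and the BH3-only members, which are raised or activated by stress, cytokine loss or DNA damage, neutralise the pro-survival members or activate the effectors directly. In T cells the balance between BIM, the product of Bcl2l11, and BCL2 and MCL1 is known for setting how many activated cells die when a response ends. RARα is a nuclear receptor that binds RA, and BATF is an AP-1 family factor that is induced by T cell activation.

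BATF peaks were found at 8 of the 10 genes in the control list and at 7 in the RA list, and RARα peaks at 3 genes in the control list and at none in the RA list. Across 21887 protein-coding genes, 48.6% had a BATF control peak, 38.3% a BATF RA peak, 7.18% a RARα control peak and 3.19% a RARα RA peak. In numbers of peaks, the genes held 38 in BATF control, 27 in BATF RA, 3 in RARα control and 0 in RARα RA. The whole lists held 15812, 9899, 1172 and 597 peaks, in the same order. Bcl2 carried 11 BATF control peaks, Bcl2l1 carried 9, Mcl1 and Bcl2l11 carried 6 each, Bbc3 carried 3, and Bax, Bak1 and Bid carried 1 each. At least 11 were found at 92 genes (0.420%), at least 6 at 631 (2.88%) and at least 3 at 2848 (13.0%). Bcl2 is a long gene, with a span of 176 kb, whereas Mcl1 spans 6.24 kb and Bbc3 9.94 kb, and no correction for span was made. Bcl2a1d and Pmaip1 had no peak in any list.

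**Figure D1:**
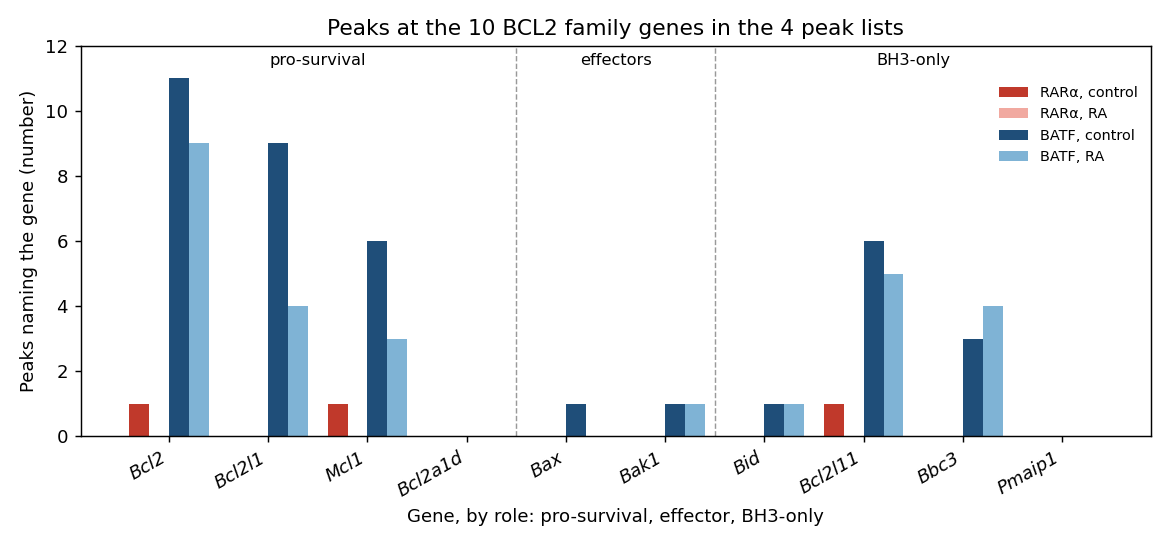
Bars give the number of peaks (vertical axis) that name each of the 10 genes (horizontal axis, grouped by role) in each of the 4 lists. BATF peaks are most numerous at Bcl2 (11 in control, 9 with RA), RARα peaks occur once each at Bcl2, Mcl1 and Bcl2l11 in control, and Bcl2a1d and Pmaip1 have none.

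The RARα comparison asked where the receptor sits without and with its ligand. Among the 10 genes, RARα control peaks named Bcl2, Bcl2l11 and Mcl1, the last from 5908 bp outside the gene. All 3 were close to the calling threshold, and 0 of these 3 peaks had a RARα RA peak within 5 kb. Over the whole RARα control list this was true of 10.2% of peaks. The nearest RARα RA peak lay 284439 bp from the Bcl2 peak.

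At Bcl2, the RARα control peak was at chr1:106697473-106697808 (mm10), in intron 1, where 10 fragments covered the summit, a fold over IgG of 2.83. At Mcl1, it was at chr3:95669087-95669327, in intergenic sequence 5908 bp from the high-coordinate end of the gene, with 16 fragments and a fold of 2.14. At Bcl2l11, it was at chr2:128152945-128153218, in intron 3, with 14 fragments and a fold of 2.35. These were among the weaker peaks of the list. By p they ranked 878 (Bcl2), 1068 (Bcl2l11) and 1163 (Mcl1) of 1172, and the fold was lower in 25.1%, 4.10% and 1.54% of the list. The peak near Mcl1 was also assigned to 8 other genes, which leaves its target unknown.

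The 3 peaks were close to the calling threshold. At the IgG level found at each site, the RARα cutoff asked for at least 9 fragments at Bcl2, 14 at Bcl2l11 and 16 at Mcl1, against the 10, 14 and 16 counted. The same 3 minimums applied at the depth of the RARα RA pool, whose fragment counts at these positions were not analysed here. The local IgG level was 1.01 times the pool's background at Bcl2, 1.89 times at Bcl2l11 and 2.44 times at Mcl1, where 13.8% of the whole list lay above 2 times. Its part in these calls was not tested. The deposited -log10 q-value was 0 for all 3, as for 26.6% of the list, and none remained at a q-value of at most 0.05, at p of at most 1e-05 or at a fold of at least 5.

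**Figure D2:**
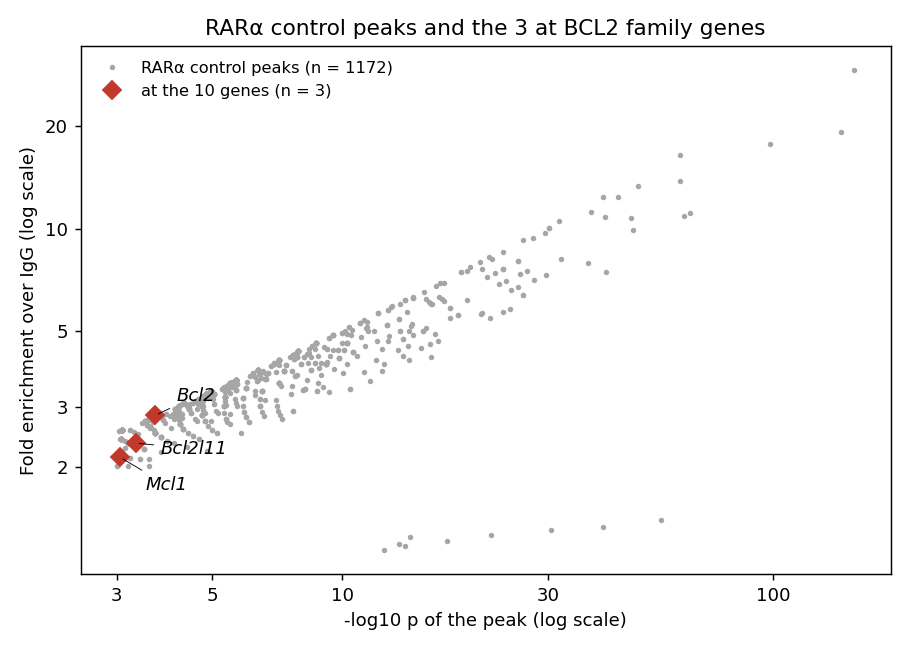
Each grey point is 1 of the 1172 RARα control peaks, by its -log10 p (horizontal, log scale) and its fold enrichment over IgG (vertical, log scale). The red diamonds mark the 3 peaks at Bcl2, Bcl2l11 and Mcl1, which lie at the low end of both axes, with folds between 2.14 and 2.83.

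The RARα control peak of Bcl2l11 lay within a BATF peak of both conditions, and the one near Mcl1 lay within a BATF control peak and overlapped a BATF RA peak. The RARα and BATF control summits were 124 bp apart in Bcl2l11 and 104 bp apart near Mcl1. BATF was the stronger signal at both, with 53 fragments against 14 in Bcl2l11 and 50 against 16 near Mcl1. The Bcl2 intron peak stood alone, 9095 bp from the nearest BATF control peak. A BATF control peak was thus found within 5 kb of 2 of the 3, beside 61.9% of all RARα control peaks.

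In the gene-by-gene account that follows, fragments are given as counted, and the BATF RA pool had 71.1% of the depth of its control. Among the pro-survival genes, BATF was spread over intron 1, the promoter and the flank of Bcl2. The strongest of its 11 control peaks was in intron 1 at chr1:106647275-106647743, with 86 fragments and a fold of 12.3, above 93.6% of the BATF control list. With RA this site held 50 fragments at a fold of 11.1. A further cluster of 4 control peaks covered the promoter end of the gene (chr1:106706903-106714727), the highest of them at the transcription start with 60 fragments and a fold of 7.35. With RA, that start site peak held 23 fragments at a fold of 4.37. Of the 11 control peaks, 8 were overlapped by a BATF RA peak. One that was not, in intron 1 at chr1:106600585-106601477, had 43 fragments and a fold of 6.92, and its nearest RA peak began 5498 bp away.

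Bcl2l1 encodes BCL-XL, which protects activated lymphocytes. Its 9 control peaks were modest, with folds from 3.46 to 6.14, and 3 of them were overlapped by an RA peak. The promoter peak at chr2:152829771-152831822 was the highest, with 59 fragments, and the site in intron 2 at chr2:152787531-152787774 had the highest fold. With RA the promoter summit held 25 fragments and the intron 2 site 15, against 23 in control. Scaled to depth, RA over control was 0.596 at the promoter and 0.918 at the intron 2 site. The remaining 6 peaks without overlap included a pair more than 70 kb from the gene, at 70404 and 72572 bp, that were assigned to 7 genes each.

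Mcl1, whose short-lived product T cells need at most stages, had a BATF peak over its promoter and introns. In control this was a single peak of 3478 bp (chr3:95658459-95661936) with 51 fragments and a fold of 8.56, and with RA it was called as a pair of shorter peaks with 21 and 30 fragments. A weaker control peak lay in the last exon, with 17 fragments and a fold of 3.87. A row of 4 control peaks followed between 1009 and 10607 bp past the high-coordinate end of the gene, each assigned to 9 genes. Only the site at 5550 bp, the one that also held the RARα peak, was overlapped by an RA peak, with 50 fragments in control and 32 with RA. Scaled to depth, RA over control was 0.901 there and 0.828 at the promoter.

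Bcl2a1d encodes a form of A1, a pro-survival protein made by activated lymphocytes and myeloid cells. It had no peak, and the nearest BATF control peak was 174811 bp away. Its near-identical relative Bcl2a1b carried a BATF promoter peak in both lists (fold 7.11 in control and 3.70 with RA). How the authors placed reads that match several members of this cluster is not given in the sources used here, so these values cannot be assigned to 1 copy with certainty.

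The effectors carried few peaks. Bax had 1, a BATF control peak over its promoter (chr7:45466471-45466947, 29 fragments, fold 4.23), and none in BATF RA. An RA peak assigned to the neighbour Ftl1 lay 2258 bp from Bax, and 7034 bp from the Bax control peak. Bak1 had a promoter peak in both lists (chr17:27027035-27028727 in control), with 34 fragments and a fold of 7.93 in control and 17 fragments and a fold of 5.40 with RA. The Bak1 peak was also assigned to Ggnbp1.

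The BH3-only group held the strongest BATF site of the family, at Bbc3, which encodes PUMA, a target of p53. Its control peak spanned 5570 bp inside the gene (chr7:16309169-16314738) with 86 fragments at the summit and a fold of 21.5, above 98.7% of the list. With RA the same stretch was called as separate peaks. The one at the control summit (chr7:16313664-16314518) had 52 fragments and a fold of 17.5, above 97.6% of the RA list, and the other (chr7:16309473-16311798) had 28 fragments and a fold of 7.91. Other control peaks of Bbc3 lay 8282 and 11177 bp from the gene, with folds of 8.95 and 12.7, and both were assigned to 7 genes.

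Bcl2l11 had BATF peaks at its promoter, in intron 3 and in the last exon in both conditions. The intron 3 peak, which held the RARα summit, had 53 fragments and a fold of 8.89 in control and 30 fragments and a fold of 8.09 with RA. The promoter peak had 54 fragments in control, and the exon site had 27 in control and 19 with RA. Scaled to depth, RA over control was 0.796 at the intron 3 site and 0.990 at the exon site. Farther out, at 27352, 59299 and 88169 bp from the gene, the control list held 3 more peaks, of which the nearest was overlapped with RA. Bid, whose product links death receptors to the mitochondria, had a promoter peak in both lists, with 46 fragments and a fold of 5.16 in control (chr6:120916137-120917703) and 20 fragments and a fold of 4.57 with RA. Pmaip1, which encodes NOXA, had no peak, and BATF came no closer than 455991 bp in control and 455920 bp with RA.

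**Figure D3:**
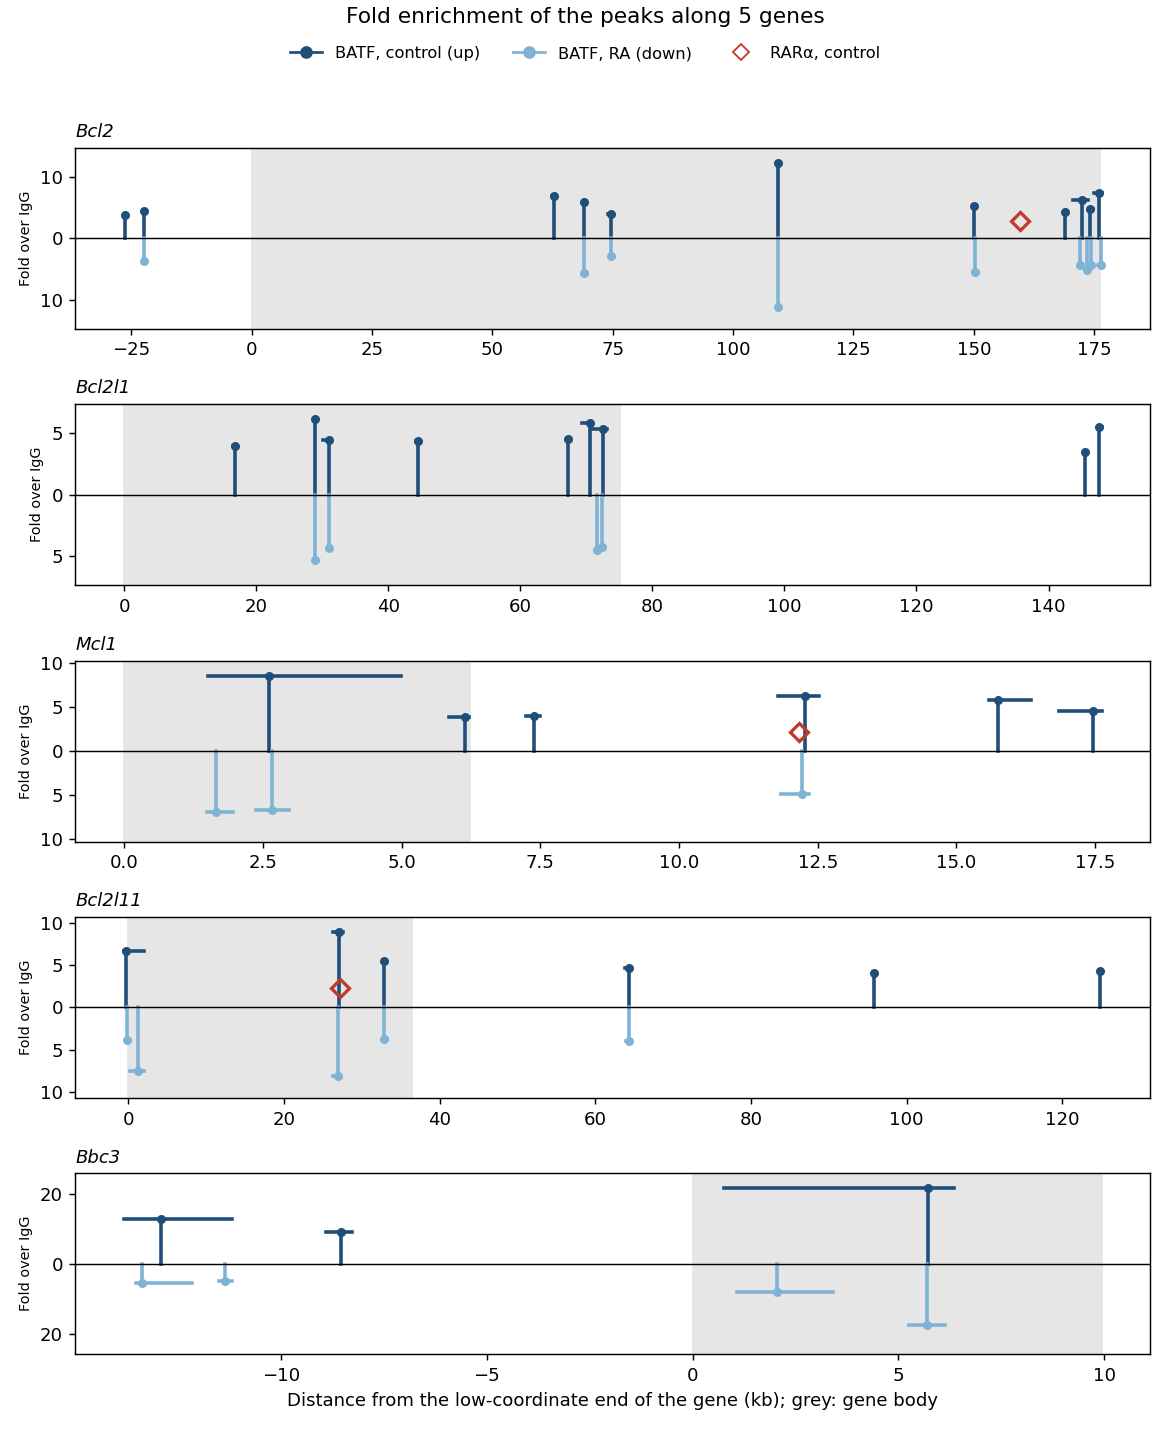
Positions of the peaks along Bcl2, Bcl2l1, Mcl1, Bcl2l11 and Bbc3, in kb from the low-coordinate end of each gene (grey, gene body), against fold enrichment over IgG, drawn upward for BATF control and downward for BATF RA. Vertical lines stand at summits, horizontal bars show peak widths and open diamonds mark RARα control peaks; the tallest site is in Bbc3, with folds of 21.5 and 17.5.

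Promoters took a smaller share of the family's BATF control peaks than of the list as a whole. Of the 38, 11 were promoter peaks (28.9%, Wilson 95% interval 17.0 to 44.8), 2 exonic, 12 intronic (31.6%) and 13 intergenic (34.2%). Over the whole list, 58.7% were promoter, 20.1% intronic and 18.1% intergenic. Of the 38, 12 carried several gene names, and the long genes Bcl2 (176 kb) and Bcl2l1 (75.1 kb) held 11 and 9. The part of the naming rule and of gene span in these shares was not tested. In strength the family's BATF peaks were close to the list, with a median fold of 5.33 against 5.40 in control and 4.88 against 5.29 with RA. The IgG level exceeded 2 times the background at 17 of the 38 and at 12 of the 27 RA peaks, beside 32.1% and 30.3% of the lists, and its part in the peak calls was not tested.

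The BATF comparison asked whether 1 h of RA changed where BATF was found. By peak number the pro-survival genes went from 26 to 16, the effectors from 2 to 1 and the BH3-only genes from 10 to 10. The whole BATF list went from 15812 to 9899 peaks. The family counts hide a split of wide peaks. All 27 RA peaks overlapped a control peak, beside 93.6% of the whole RA list (96.3% within 5 kb), but they fell into 21 control peaks, because the 6 widest control peaks of the family, 2052 to 5570 bp, each held 2 RA peaks. Counted as control sites with an overlapping RA peak, 13 of 26 pro-survival, 1 of 2 effector and 7 of 10 BH3-only peaks were retained. Together this was 21 of 38 (55.3%, interval 39.7 to 69.9), beside 54.4% of all BATF control peaks.

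With a tolerance of 5 kb, 30 of the 38 control peaks had an RA peak (78.9%, interval 63.7 to 88.9), beside 69.9% of all. The 8 without one were 4 at Bcl2l1, 2 at Bcl2l11, 1 at Bcl2 and 1 at Bax. Their folds ran from 3.46 to 6.92, with a median of 4.26 against 5.66 for the others. Depth differed between the pools, so the -log10 p that each control peak would have at the RA depth, with an unchanged signal, was computed. By this measure 36 of the 38 would still pass the cutoff, including 7 of the 8, and 29 of the 36 had an RA peak (80.6%, beside 71.6% of all such peaks). The Bax promoter peak and the Bcl2 intron peak that went unmatched had expected -log10 p of 8.15 and 17.5 against a cutoff of 5. This measure takes each control count as exact, without counting error, and precipitation as equally efficient in both pools. Why peaks went unmatched was not tested.

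Summit signal was then compared where peaks overlapped, as depth-scaled fragments (the count divided by the pool's fragments, times 10000000), with each control peak set against the RA peak of nearest summit. The RA pool gave less than the control pool at 19 of 21 family sites (90.5%, interval 71.1 to 97.3), beside 76.8% of all such pairs. The scaling covers depth only, and a difference between the pools in precipitation efficiency was not tested. The median ratio of RA to control was 0.828 (quartiles 0.704 and 0.958), and 0.844 over all 8605 pairs. Such a ratio exists only where the RA pool passed the calling cutoff. Counting error was wide for single sites, and the 95% interval lay below 1 at 2 of the 21 and above 1 at 0. Both were promoter sites of pro-survival genes. The Bcl2 start site went from 26.0 to 14.0 depth-scaled fragments (ratio 0.539, interval 0.318 to 0.886), and the Bcl2l1 promoter from 25.5 to 15.2 (ratio 0.596, interval 0.358 to 0.967).

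The pairs were then split by whether the control peak was classed as promoter, a choice made after their values were seen. By depth-scaled summit signal, these promoter sites were lower with RA at all 7 genes that had an overlapping promoter pair. The RA peak taken was classed as exon at Bbc3 (0.851) and as intron at a Bcl2 site (0.608). Against the RA peak of promoter class at Bbc3 the ratio was 0.458. Their 9 ratios ran from 0.539 at Bcl2 to 0.851 at Bbc3, with a median of 0.704, and 9 of 9 were below 1, beside 82.3% of promoter pairs in the whole list, whose median was 0.807. Besides Bbc3, the genes with a single such site had ratios of 0.828 at Mcl1, 0.704 at Bak1, 0.612 at Bid, 0.730 at Bcl2l11 and 0.596 at Bcl2l1. The 12 other sites had a median of 0.938 and 10 were below 1, beside 66.2% and a median of 0.910 over all pairs outside promoters. Promoter peaks of the family were also wider, with a median of 2052 bp against 535 bp for its other paired peaks, and the part of width in these ratios was not tested. The intron 1 site of Bcl2 with the highest fold changed from 37.2 to 30.4 depth-scaled fragments (ratio 0.818, interval 0.565 to 1.17).

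Pairs made by nearest midpoint within 5 kb, which also took in neighbours that do not overlap, gave 30 pairs with a median of 0.890 (0.885 over all 11048 pairs), and RA was lower in 21 of 30 (70.0%, beside 66.5%). The lowest 3 ratios were 0.458 at the Bbc3 promoter, 0.539 at the Bcl2 start site and 0.596 at the Bcl2l1 promoter. The Bbc3 value depended on which of the divided RA peaks was taken. Against the RA peak at the control summit the change was from 37.2 to 31.7 depth-scaled fragments, a ratio of 0.851 (interval 0.591 to 1.21). The Bcl2l11 promoter, also divided with RA, had a ratio of 0.625 by midpoint and 0.730 by nearest summit. The highest 3 ratios, 2.48 at both of a pair of Mcl1 control peaks and 2.25 at Bcl2, each set a weak control peak against a stronger RA peak 2899 to 4284 bp away, so they compare different sites.

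**Figure D4:**
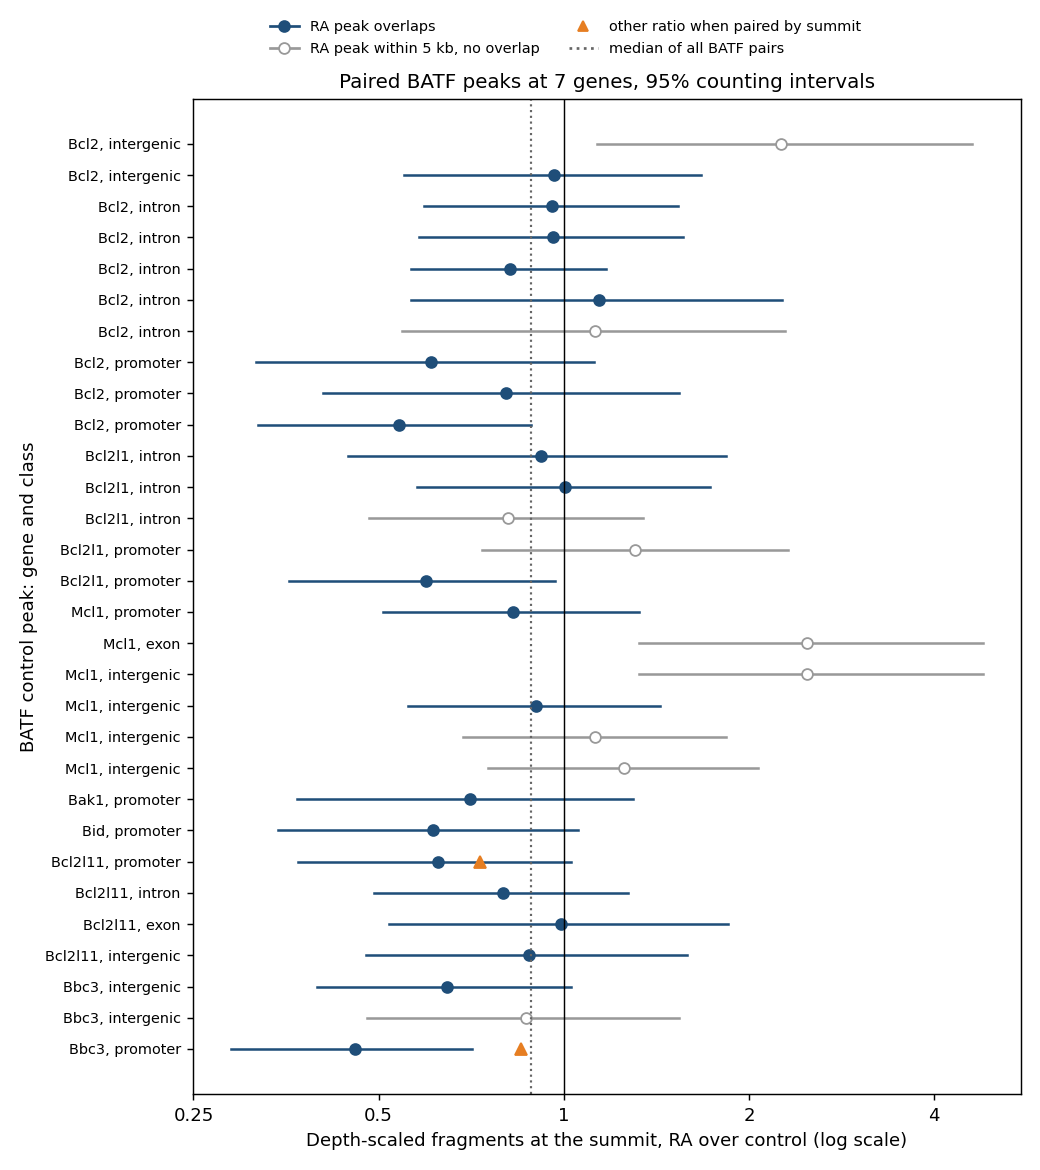
Each row is a BATF control peak with a BATF RA peak within 5 kb, and the point gives the ratio of depth-scaled fragments at the summits, RA over control (log scale), with its 95% counting interval. Filled points overlap their RA peak and mostly lie left of 1, open points are neighbours without overlap, and triangles show the ratio against the RA peak of nearest summit where that differs (0.851 in place of 0.458 at Bbc3).

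The other BCL2 family genes showed a similar spread. Of 16 such genes, 11 had a BATF control peak and 9 a BATF RA peak (beside 48.6% and 38.3% of all genes). The highest control folds were 15.3 at Bnip3l, a mitophagy receptor, 7.93 at Bad, a BH3-only gene regulated by phosphorylation, and 7.11 at Bcl2a1b. With RA these were 9.50, 6.94 and 3.70. Bad was the only one of the 16 named for a RARα peak, with folds of 6.42 in control and 4.78 with RA, but that peak was 71998 bp from the gene and carried 12 gene names. Of the 16 BATF control peaks at these genes, 11 had an RA peak within 5 kb, beside 69.9% of all.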

How the data were processed

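ChIP-seq of RARα, BATF and IgG was measured in CD8 T cells. After alignment to mm10, the authors ran MACS 2.2.7.1 with IgG as the control, at a p cutoff of 0.001 (RARα) or 1e-05 (BATF). The signal deposited as pileup counts fragments at the summit, scaled by 0.988 in BATF control. The deposited fold is the ratio of pileup plus 1 to local IgG plus 1, from which the IgG level was recovered. The deposited p-value and q-value are on the -log10 scale. A Poisson tail of pileup over IgG returned the deposited p in 100% of finite values (tolerance 0.05 on the -log10 scale), and gave the expected p at the RA depth and the minimum counts. Ratio intervals are exact binomial (Clopper-Pearson), and intervals on shares are Wilson 95%. PCR duplicates and shared sources are not covered by them.

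Gene positions came from a RefSeq table for GRCm38.p6, to which mm10 corresponds. All 10 genes were named in full. In the wider lists, every gene with a RARα peak and the 3 of highest BATF control fold per list were named. For members with a RARα peak, the 3 genes of nearest log2 highest fold over the 4 lists were named, and the 3 lowest and highest ratios were given. The genes and lists were chosen with earlier results of these data known, and the split by promoter and the summit pairing after their values were seen. Steps were tested on simulated data. Alternatives covered gene assignment, thresholds, merging, overlap, scaling and pairing. Sequences and expression were not used here. Tools were matplotlib 3.10.9, scipy 1.17.1, numpy 2.4.6, pandas 2.3.3 and Python 3.11.15.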

Additional observations from a re-analysis of the deposited data

How the results depend on the processing

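Of 61 alternatives, 49 left the value within its limits. The 3 RARα control peaks and genes fell to 0 at a q-value of at most 0.05, at p of at most 1e-05 and at a fold of at least 5, and no overlap share could then be given. At a fold of at least 5, BATF control held 21 peaks and BATF RA 13. The retained share was 55.3% with overlap and 57.9% within 1 kb. The median midpoint ratio was 0.640 without depth scaling and 1.01 relative to the median of all pairs, on the other side of 1, since the whole list was lower with RA. It was 0.818 in overlapping pairs and 0.828 by nearest summit, an alternative added after seeing the data, as was the set of peaks expected to pass at the RA depth. No paired analysis was possible because each condition is a single pooled list. Depth limits single sites, where most intervals hold 1. RA ratios exist only where RA peaks were called.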

Other observations

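Genes around the BCL2 family were also marked by BATF. In the death receptor pathway, which can reach the mitochondria through BID, 11 of 11 genes had a BATF control peak and 10 a BATF RA peak, beside 48.6% and 38.3% of all genes. The highest control folds were 23.4 at Tnfrsf1b, encoding a TNF receptor, 9.88 at Fasl, the ligand of Fas, and 7.93 at Tnfrsf10b, a TRAIL receptor, although the Tnfrsf1b peak lay 94950 bp and the Fasl peak 13166 bp from the gene, and each carried 2 gene names. RARα control peaks were recorded at Fasl (fold 4.19), Casp8 (2.82), Tnfrsf1b (2.59) and Tradd (2.59), and none of the 11 had a RARα RA peak, beside 7.18% and 3.19% of all genes. The RARα peak of Tnfrsf1b lay 95210 bp from the gene, and the peaks of Fasl, Tnfrsf1b and Tradd carried 2 gene names each. Over the whole RARα control list, 10.2% of peaks had a RARα RA peak within 5 kb. Of 43 BATF control peaks in this list, 33 had an RA peak within 5 kb (76.7%, beside 69.9% of all).

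Among 10 upstream regulators of the family, 9 had a BATF peak in each list, beside 48.6% (control) and 38.3% (RA) of all genes, and 25 of 26 control peaks had an RA peak within 5 kb (96.2%, beside 69.9% of all). The highest control folds were 18.0 at E2f1, a cell cycle factor, 11.8 at Stat5a and 9.88 at Stat5b, both of which transmit IL-2 signals. RARα control peaks were recorded at Foxo1 (fold 3.78), Stat5b (3.36) and Myc (2.52), and none of the 10 had a RARα RA peak, beside 7.18% and 3.19% of all genes. Among 13 apoptosome, caspase and inhibitor genes, 12 had a BATF control peak and 9 a BATF RA peak, beside the same 48.6% and 38.3%, with the highest folds 14.3 at Birc5, 11.9 at Vdac2 and 9.45 at Diablo, and no RARα peak. Of their 26 BATF control peaks, 15 had an RA peak within 5 kb (57.7%, beside 69.9%).

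Among 12769 genes with any peak, those nearest to Bcl2 in log2 highest fold over the 4 lists were Map4k3, Bcat1 and Stambpl1 (distances 0.10, 0.11 and 0.14). For Mcl1 they were Cdh23, Bcl2l11 and Kbtbd7 (0.15, 0.26 and 0.27), and for Bcl2l11 they were Srpk1, Ptp4a2 and Dnaja1 (0.19, 0.22 and 0.22). The measure has 4 values per gene and takes no account of peak number or position.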
